A study of Mus musculus with 36 samples.

Results

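The 10 genes described here encode the enzymes that cut, trim, extend and rejoin antigen receptor genes: Rag1, Rag2, Dntt, Lig4, Xrcc4, Xrcc5, Xrcc6, Prkdc, Dclre1c and Nhej1. Their DNase hypersensitive sites (DHS, stretches of open chromatin that the enzyme DNase I cuts readily) were taken as every DHS of the table that overlapped a gene body in GENCODE vM21 extended by 10 kb on each side, or by 50 kb for the neighbouring genes Rag1 and Rag2. This gave 47 of the 52788 DHS, at 9 loci: 11 around Rag1 and Rag2, 10 at Xrcc4, 6 at Dntt, 5 each at Xrcc6 and Nhej1, 3 each at Lig4, Xrcc5 and Dclre1c, and 1 at Prkdc. DNase-seq was measured in B3, a mouse pre-B cell line, in pools of cells sorted for GFP after infection with a retroviral MSCV vector. The Ikaros line carried a vector for HA-tagged Ikaros fused to the hormone-binding domain ERt2, and the control line carried the ERt2 vector without Ikaros; both vectors also encode GFP. Each line was sampled at 0, 2, 6, 12, 18 and 24 h with 3 replicates, numbered 4, 5 and 6, which gave 12 groups and 36 libraries. The labels name the drug 4-hydroxytamoxifen, which sends the fusion protein to the nucleus, at 0.5 µM for all samples, whereas by the study's methods cells at 0 h had no drug and came from a separate collection.

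V(D)J recombination assembles immunoglobulin genes in developing B cells. The RAG1 and RAG2 proteins form the recombinase that cuts DNA beside each gene segment, and the enzyme encoded by Dntt (TdT) adds nucleotides to the cut ends. The breaks are closed by classical non-homologous end joining: the Ku proteins encoded by Xrcc6 and Xrcc5 bind the ends, the DNA-dependent protein kinase encoded by Prkdc activates the hairpin-opening nuclease Artemis encoded by Dclre1c, and DNA ligase IV with its partners XRCC4 and XLF, encoded by Lig4, Xrcc4 and Nhej1, seals them. Rag1, Rag2 and Dntt are lymphoid genes, with Rag1 and Rag2 under enhancers that lie upstream of Rag2 in B-lineage cells, while the end-joining genes are expressed widely. Ikaros is a zinc finger transcription factor of lymphoid cells that recognises sites with a GGGAA core.

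The accessibility values are log2 of normalised read density per length, once noise had been corrected by the authors. The median value of a library was between 3.90 and 4.11, and the read depth of each library is not in the values (the study's methods state only a minimum), so no counting interval could be given. The cell type was checked by promoter DHS of marker genes. A promoter DHS was found for 11 B-lineage genes, among them Cd79a, Pax5 and Ebf1, and for none of the starts of Rag2, against 1 of 7 T-lineage genes (Lat), 1 of 6 myeloid genes (Lyz2), 1 of 4 erythroid genes (Klf1), 1 of 4 fibroblast genes (Col1a1) and 0 of 2 muscle genes. In bulk cells, a larger share of cells with an open site and more cutting per cell cannot be told apart. The noise correction reduced the 12 group means to 6 dimensions where 11 are possible, so groups are not independent of each other. Spread between replicates also differed between groups: the median SD of the 47 DHS lay between 0.163 and 0.281 in the Ikaros groups and between 0.215 and 0.398 in the control groups. A set of 3 of the 6 libraries at 0 h stood apart: the correlation across all DHS with the mean of the other libraries was lowest for Control 0 h replicate 6 (r = 0.667), Ikaros 0 h replicate 4 (r = 0.692) and Ikaros 0 h replicate 5 (r = 0.703), against 0.780 to 0.930 in the other 33.

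Both DHS of the Rag locus that passed the test at 12 and 24 h, a neighbouring DHS that did not pass and the Rag1 promoter are printed here because the comparisons turn on them (GRCm38, 5′ to 3′, GGGAA or its reverse complement in capitals). The first 3 are the central 300 bases of the DHS at chr2:101615941-101616240, chr2:101598826-101599125 and chr2:101600582-101600881, all on the plus strand and all inside introns of B230118H07Rik, a gene that runs across the locus. The last is the RefSeq promoter of Rag1, from 250 bases before to 50 after its start, at chr2:101649483-101649782 on the minus strand.
DHS 8.63 kb upstream of Rag2: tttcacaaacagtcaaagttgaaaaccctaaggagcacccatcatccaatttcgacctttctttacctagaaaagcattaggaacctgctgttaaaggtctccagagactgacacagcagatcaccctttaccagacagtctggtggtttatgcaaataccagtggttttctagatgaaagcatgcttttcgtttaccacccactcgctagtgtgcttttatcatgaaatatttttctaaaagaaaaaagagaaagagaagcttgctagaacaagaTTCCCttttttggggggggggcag
DHS 25.74 kb upstream of Rag2: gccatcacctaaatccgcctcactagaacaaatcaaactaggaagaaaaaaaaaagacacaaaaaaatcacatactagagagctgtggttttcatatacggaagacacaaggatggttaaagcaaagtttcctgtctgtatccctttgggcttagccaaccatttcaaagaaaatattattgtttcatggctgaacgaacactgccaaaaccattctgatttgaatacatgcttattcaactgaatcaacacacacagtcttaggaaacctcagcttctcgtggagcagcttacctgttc
DHS 23.99 kb upstream of Rag2: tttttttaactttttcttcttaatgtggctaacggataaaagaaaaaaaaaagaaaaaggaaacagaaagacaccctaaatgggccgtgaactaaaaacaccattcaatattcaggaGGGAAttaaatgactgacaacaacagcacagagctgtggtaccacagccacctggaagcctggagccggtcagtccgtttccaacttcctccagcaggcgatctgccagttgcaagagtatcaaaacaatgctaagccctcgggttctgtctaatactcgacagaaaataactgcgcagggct
Rag1 promoter: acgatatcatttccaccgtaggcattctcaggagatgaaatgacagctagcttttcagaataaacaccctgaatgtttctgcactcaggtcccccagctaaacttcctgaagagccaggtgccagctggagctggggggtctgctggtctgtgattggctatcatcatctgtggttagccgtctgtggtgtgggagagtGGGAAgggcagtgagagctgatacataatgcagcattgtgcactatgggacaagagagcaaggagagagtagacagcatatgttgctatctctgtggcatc
GGGAA was searched on both strands. It occurred 1 time in the DHS 8.63 kb upstream, in the DHS 23.99 kb upstream and in the Rag1 promoter, and 0 times in the DHS 25.74 kb upstream. Among the central 300 bases of the 47 DHS, 27 (57.4%) held it, against 61.5% of all 52788 DHS. The E-box words CAGGTG and CAGCTG occurred in 13 (27.7%) and 12 (25.5%) of the 47, against 21.8% and 19.7% of all DHS, and CACAGTG, the heptamer of recombination signal sequences, in 5 (10.6%) against 8.73%. No match of these words overlapped another. RefSeq promoters were matched for 9 of the 10 genes, in 10 entries since Lig4 has a pair, and 8 of the 10 held GGGAA, against 62.7% of 32851 promoters. A match is a run of letters and not a measured binding site.

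The plainest pattern lay upstream of Rag2. The DHS 8.63 kb upstream (chr2:101615830-101616350) was lower in Ikaros than in control cells at 0 h and higher at every later time. At 0 h its 3 control values were 3.99, 3.86 and 4.08 and its 3 Ikaros values 3.83, 3.58 and 3.74. All Ikaros values then lay below all control values, although the difference of -0.26 ± 0.21 (SE, n = 3 per group) did not pass the test (limma, adjusted p = 0.441) and was 0.02 once each library's trends were removed. At 2 h the control values were 3.56, 3.49 and 3.81 and the Ikaros values 4.13, 4.20 and 4.17. At 12 h the control values were 3.10, 3.61 and 3.37 and the Ikaros values 4.15, 4.37 and 4.80, and at 24 h they were 3.22, 3.57 and 3.58 against 4.61, 4.48 and 4.44. The groups thus stood apart in the opposite direction from 2 h on. Ikaros means moved up from 3.72 at 0 h to 4.51 at 24 h, and control means went from 3.98 to 3.46. By the study's methods, cells at 0 h were a separate collection without drug. A change from 0 h, here and at every other DHS, therefore cannot be told apart from a difference between collections.

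The line difference at this DHS was 1.08 ± 0.21 on the log2 scale at 12 h (2.11-fold, limma adjusted p = 0.0107) and 1.05 ± 0.21 at 24 h (2.08-fold, adjusted p = 0.00985). The differences at 2, 6 and 18 h were 0.55, 0.45 and 0.79 and did not pass (adjusted p = 0.323, 0.322 and 0.0647). The change of the line difference from 0 h to 24 h was 1.31 ± 0.29 (adjusted p = 0.0133), while the F-test of the interaction over all times gave an adjusted p of 0.0591 and that of change over time in Ikaros cells 0.155. The changed difference stayed past the threshold in 16 of 21 alternatives, among them those without each of the 12 single libraries in turn. It was lost with each library's trends removed (0.77, adjusted p = 0.207), with only the groups compared (adjusted p = 0.0629) and without replicate 4, 5 or 6 in all groups (adjusted p = 0.0802, 0.0657 and 0.133). Leaving out replicate 4, 5 or 6 in all groups also ended the calls at 12 h (adjusted p between 0.0628 and 0.294) and at 24 h (0.151 to 0.161), and a fit of only the groups compared ended that at 12 h (0.116). Both were also lost with trends removed (0.77 and 0.79, adjusted p = 0.124 and 0.0853). The call at 12 h was further lost without Ikaros 12 h replicate 6 (0.90, adjusted p = 0.0963), and the call at 24 h without Control 24 h replicate 4 (0.94, adjusted p = 0.0628) or Ikaros 24 h replicate 4 (1.01, adjusted p = 0.0699). The 18 h difference passed without Control 18 h replicate 4 (1.03, adjusted p = 0.0276), and the interaction without Control 2 h replicate 4 or 5 or Control 18 h replicate 4 or 5 (adjusted p between 0.0344 and 0.0473). Removing each library's trends with level, GC content and width lowered the values to 0.77 at 12 h and 0.79 at 24 h (adjusted p = 0.124 and 0.0853), with the range over 15 alternatives running from 0.00874 to 0.294 at 12 h and from 0.00127 to 0.161 at 24 h.

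**Figure D1:**
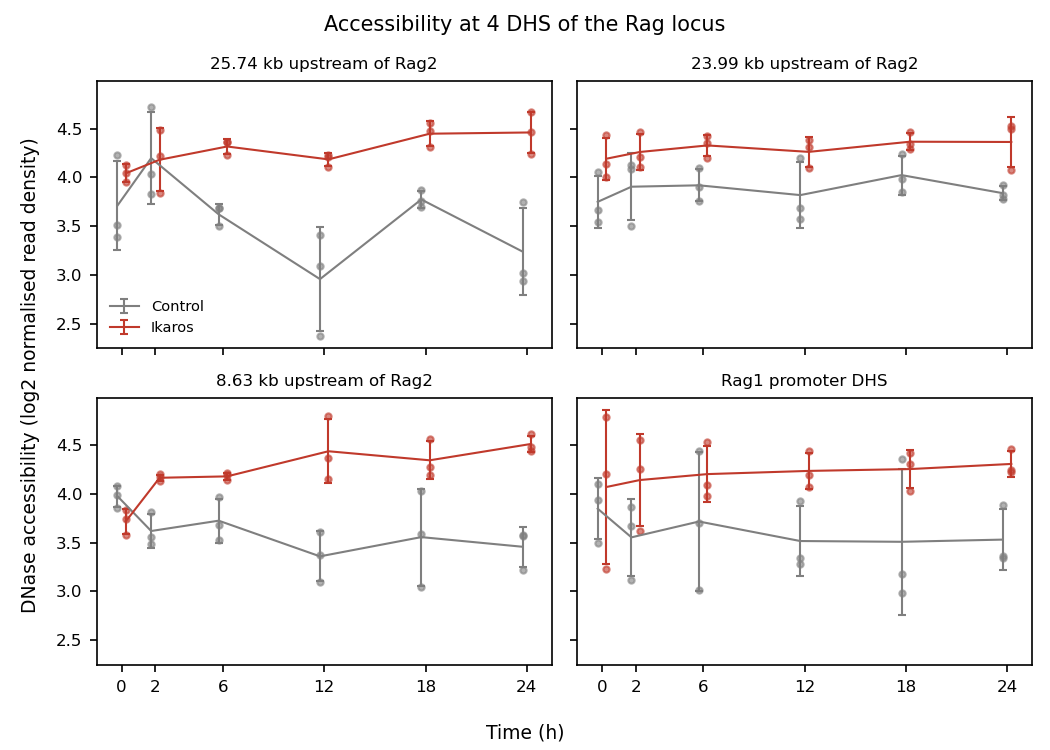
Accessibility (log2 normalised read density, y axis) against time in hours (x axis) at 4 DHS of the Rag locus, with each library as a point and lines joining group means with SD bars (n = 3); lines are offset by a fraction of an hour so that bars can be seen. At 8.63 kb upstream of Rag2 the Ikaros values lie below the control values at 0 h and above them at the other 5 times.

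The DHS 25.74 kb upstream (chr2:101598692-101599259) differed between the lines by 1.23 ± 0.26 at 12 h (2.34-fold, limma adjusted p = 0.0168) and by 1.22 ± 0.26 at 24 h (2.33-fold, adjusted p = 0.0150). Its control values at 12 h were 2.37, 3.09 and 3.41 against 4.11, 4.23 and 4.21 in Ikaros cells, and at 24 h 2.94, 3.02 and 3.75 against 4.67, 4.46 and 4.24. Here the Ikaros means ranged only from 4.04 to 4.46 over the 6 times, and the control means from 2.96 at 12 h to 4.20 at 2 h. The change over time in control cells had an unadjusted p of 0.00074 and an adjusted p of 0.118. At 0 h the difference was 0.33 ± 0.26 (adjusted p = 0.418), and its change to 24 h, 0.89 ± 0.36, did not pass (adjusted p = 0.120).

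More single libraries ended these calls than those at 8.63 kb. At 12 h the call was lost without Control 12 h replicate 4 (0.93), Ikaros 12 h replicate 4 (1.26), replicate 5 (1.20) or replicate 6 (1.22), with adjusted p between 0.0583 and 0.0840. At 24 h it was lost without Control 24 h replicate 4 (1.07) or replicate 5 (1.11), or Ikaros 24 h replicate 4 (1.12) or replicate 5 (1.22), with adjusted p between 0.0636 and 0.0957. The 12 h call was also lost with quantile normalization (0.97, adjusted p = 0.0581), and both calls with trends removed (adjusted p = 0.107 and 0.0668), with only the groups compared (0.120 and 0.0523) and without replicate 4, 5 or 6 in all groups (0.101 to 0.276). Adjusted p over the 15 alternatives ran from 0.00874 to 0.199 at 12 h and from 0.00116 to 0.276 at 24 h.

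The other 9 DHS of the locus did not pass the test at any time. The DHS 23.99 kb upstream, in the same intron stretch as the one at 25.74 kb, had differences between 0.34 and 0.53 at the 6 times, and at 24 h 3 control values of 3.82, 3.78 and 3.92 against 4.53, 4.49 and 4.07. The DHS 16.01 kb upstream differed by 0.34 ± 0.56 and the DHS 2.98 kb upstream, at a promoter of B230118H07Rik, by 0.59 ± 0.32 at 24 h. No DHS of the table lay within 1000 bp of the Rag2 start. The Rag1 promoter DHS, 24.91 kb from the Rag2 start and only 170 bp wide, was also a promoter DHS of B230118H07Rik, whose start was the nearest, 7 bp away. At 24 h it had control values of 3.34, 3.36 and 3.89 and Ikaros values of 4.22, 4.24 and 4.46. Those values did not overlap, and the difference was 0.78 ± 0.36 (1.71-fold), short of the threshold (adjusted p = 0.306).

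A narrow DHS of 133 bp at 26.31 kb, beyond the Rag1 start, had large differences with wide errors: 2.06 ± 0.53 at 2 h, 1.90 ± 0.53 at 12 h and 1.61 ± 0.53 at 24 h (adjusted p = 0.0984, 0.0632 and 0.120). Its 2 h control values were 2.08, 3.74 and -0.34, so these libraries were scattered. Without Control 2 h replicate 5 the difference at 2 h was 3.01 (adjusted p = 0.000619). With a spread per group it passed at 12 and 24 h (adjusted p = 0.0222 and 0.0126). The DHS at 28.33 and 40.76 kb, between the genes, differed by 0.25 ± 0.36 and 0.44 ± 0.26 at 24 h. The DHS at 53.64 kb, at the Traf6 promoter, and at 69.31 kb, in a Traf6 exon, differed by 0.21 ± 0.24 and 0.39 ± 0.36. At 0 h the Traf6 promoter DHS differed by 0.61 (adjusted p = 0.0861) and passed without Control 0 h replicate 5 (0.92, adjusted p = 0.00966) or Ikaros 0 h replicate 5 (0.82, adjusted p = 0.0388). Traf6 encodes a ubiquitin ligase of immune receptor signalling and is the next gene.

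At 24 h all 11 DHS of the locus had a positive difference, with a median of 0.53, against 56.0% positive and a median of 0.06 over all 52788 DHS. With quantile normalization or with trends removed 10 of the 11 were positive. For 7 of the 11, all Ikaros values lay above all control values, as they did for 7972 of all 52788 DHS. Neighbouring DHS share libraries and are not replicates, so the count is a description. Over the 36 libraries, the promoter DHS whose values ran most like that of Rag1, among 13645 outside these loci, were those of Ckm (Pearson r = 0.772), Nlrp3 (r = 0.735) and Ighv8-4 (r = 0.705), a description over points that share groups and noise correction.

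**Figure D2:**
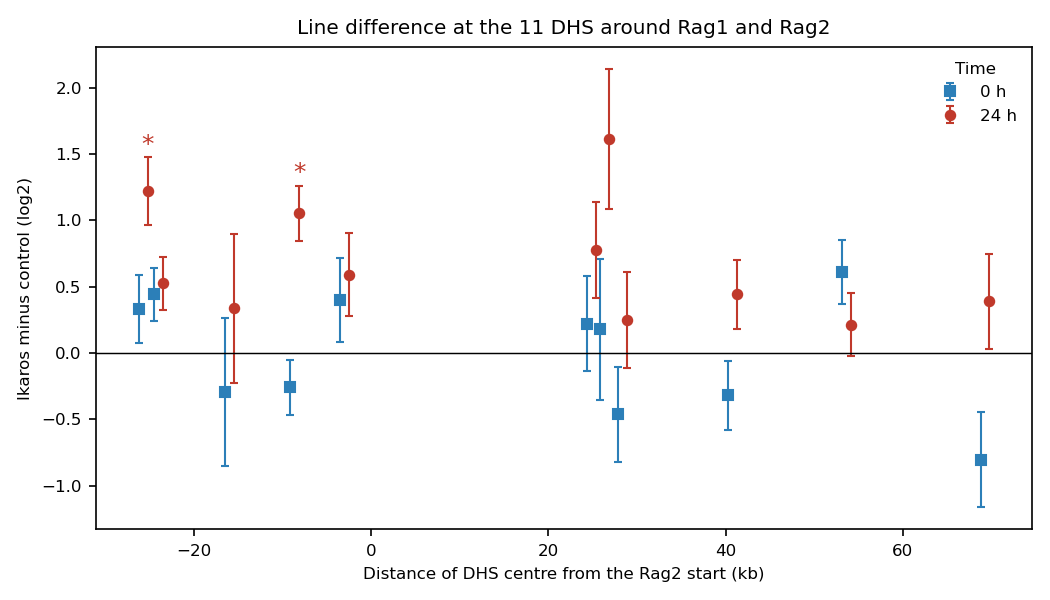
Ikaros minus control difference (log2, y axis) with its SE at the 11 DHS around Rag1 and Rag2, by distance of the DHS centre from the Rag2 start in kb (x axis), at 0 h (squares) and 24 h (circles), offset slightly sideways; asterisks mark an adjusted p below 0.05. At 24 h all 11 values are above 0 and the DHS 25.74 and 8.63 kb upstream carry asterisks, and no DHS does at 0 h.

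Across all 10 genes, few DHS passed at any time. At 0 h, 5 of 47 (10.6%) passed, 2 higher and 3 lower in Ikaros cells, where 12.9% of all DHS did. At 2 h 0 of 47 passed (4 at an unadjusted p below 0.05) with 0.195% of all DHS, and at 6 h again 0 (15 unadjusted) with 0.578%. At 12 h 2 passed (1.31% of all DHS). Later 1 passed at 18 h (0.699%) and 2 at 24 h (1.33%), all higher in Ikaros cells. The change from 0 h to 24 h was called for 2 (6.26% of all DHS). The F-tests called 0 of 47 for the interaction of line and time (6 unadjusted, 1.1% of all DHS), 0 for change over time in Ikaros cells (6 unadjusted, 2.29%) and 0 in control cells (5 unadjusted, 0.148%). Counting DHS whose 3 Ikaros values did not overlap their 3 control values gave 9 of 47 for 0 h, where 23.6% of all DHS did so, and 4 for 2 h, with 13.6% of all DHS. The count was 16 for 6 h (22%), 13 for 12 h (22.7%), 17 for 18 h (23.2%) and 17 for 24 h (25.5%), and of these last 17 the Ikaros values were above in 12 and below in 5.

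**Figure D3:**
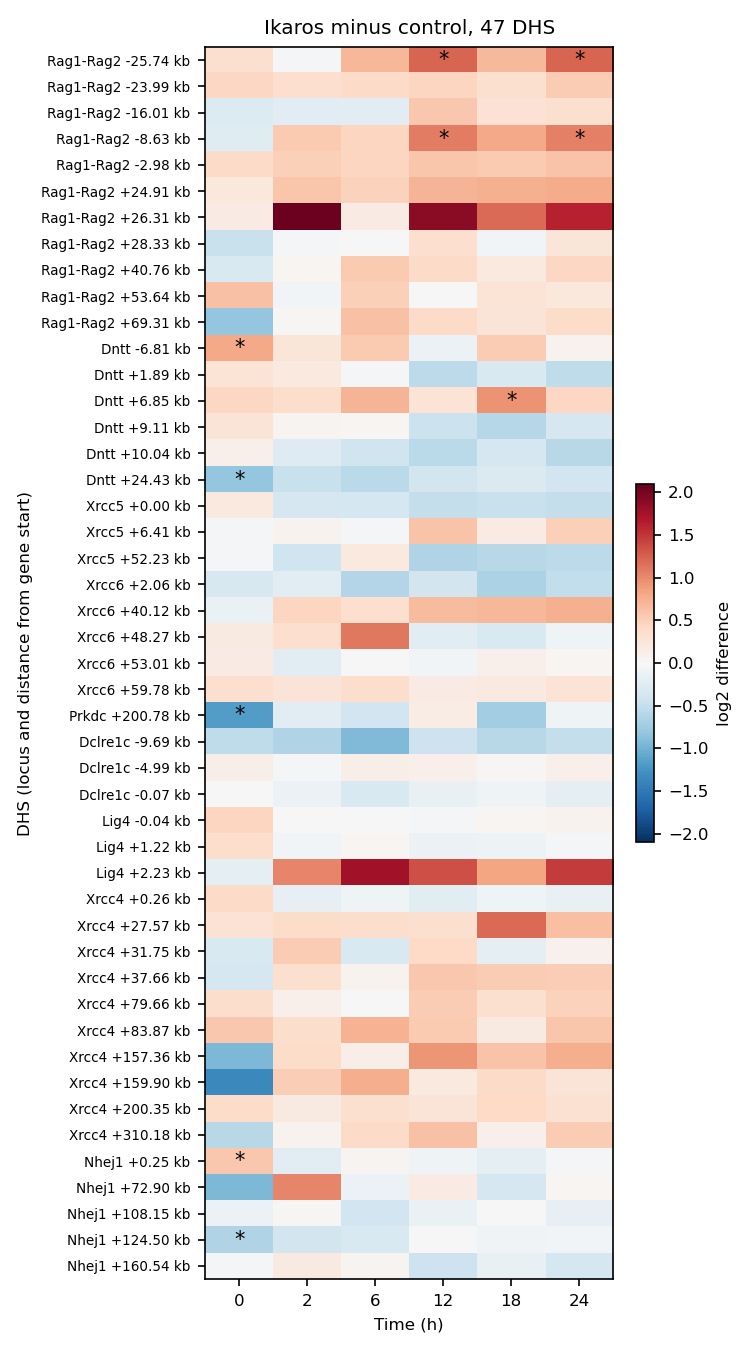
Ikaros minus control difference (log2, colour) of the 47 DHS (rows, by locus and distance from the gene start in kb) at 6 times in hours (columns), with asterisks where the adjusted p is below 0.05. The 5 asterisks at 0 h are at Dntt, Prkdc and Nhej1, those at 12 and 24 h at the Rag locus, and that at 18 h at Dntt.

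Dntt, which encodes TdT, had 6 DHS, of which 5 lay in introns and 1 was intergenic, and none within 1000 bp of its start. The intergenic DHS 6.81 kb upstream (chr19:41022145-41022781) was higher in Ikaros cells at 0 h: 4.90, 4.71 and 4.31 against 3.80, 4.09 and 3.62, a difference of 0.80 ± 0.22 (1.74-fold, limma adjusted p = 0.0176). Its Ikaros values also lay above its control values at 6 and 18 h, without passing the test. At those times 22% and 23.2% of all DHS had no overlap in either direction. At 24 h its difference was 0.07 ± 0.22. The DHS 24.43 kb into the gene (chr19:41053454-41053959) went the other way at 0 h, with 3.34, 2.86 and 3.25 in Ikaros cells against 4.00, 3.78 and 4.10, a difference of -0.81 ± 0.22 (0.571-fold, adjusted p = 0.0150). Open sites of the same gene thus differed between the lines in both directions at 0 h.

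At 18 h the DHS 6.85 kb into Dntt (chr19:41035876-41036376) was higher in Ikaros cells, with 4.06, 4.12 and 4.12 against 3.33, 2.94 and 3.17. The difference was 0.95 ± 0.20 (1.93-fold, adjusted p = 0.0227). The Ikaros values of this DHS also lay above its control values at 2, 6 and 24 h, without passing the test. At those times 13.6%, 22% and 25.5% of all DHS had no overlap in either direction. Its control means fell from 4.12 at 0 h to 3.15 at 18 h while the Ikaros means went from 4.56 to 4.10, but the F-test of change over time in control cells had an adjusted p of 0.156. The DHS at 10.04 kb, the most accessible of the gene, had 4.84, 4.85 and 5.18 in control and 4.25, 4.55 and 4.34 in Ikaros cells at 24 h, a difference of -0.57 ± 0.18 that did not pass (adjusted p = 0.0934), or did so only with a spread per group (adjusted p = 0.0147).

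Of the Dntt calls, that at 6.81 kb upstream was lost without Control 0 h replicate 6 (0.69, adjusted p = 0.0988) or Ikaros 0 h replicate 4 (0.67, adjusted p = 0.0838). That at 24.43 kb was lost without Control 0 h replicate 6 (-0.74, adjusted p = 0.0767) or Ikaros 0 h replicate 5 (-0.66, adjusted p = 0.0707). The call at 6.85 kb was lost without any of 5 single libraries (Control 18 h replicates 5 and 6, Ikaros 18 h replicates 4, 5 and 6), with differences between 0.85 and 0.97 and adjusted p between 0.0538 and 0.0972. The calls at 6.81 kb upstream, 24.43 kb and 6.85 kb were lost in 6, 9 and 10 of 15 alternatives. Each was lost with only the groups compared, both 0 h calls with a spread per group, and those at 24.43 and 6.85 kb with quantile normalization. Removal of trends also ended the call at 24.43 kb.

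**Figure D4:**
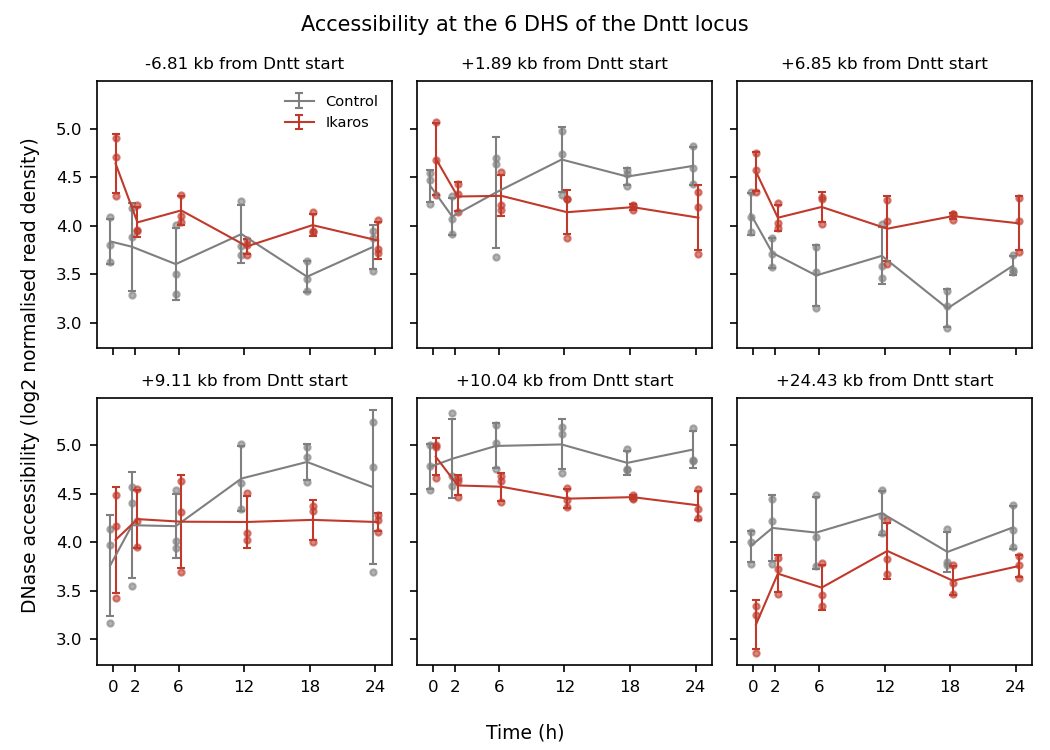
Accessibility (log2 normalised read density, y axis) against time in hours (x axis) at the 6 DHS of Dntt, with each library as a point and lines joining group means with SD bars (n = 3); lines are offset by a fraction of an hour. The Ikaros values lie above the control values at 6.81 kb upstream at 0 h and below them at 24.43 kb at 0 h.

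Among the end-joining genes, the promoter DHS of Xrcc4, Dclre1c, Lig4, Xrcc5 and Xrcc6 were more accessible than that of Rag1. Prkdc and Nhej1 had no promoter DHS by the basic annotation. The promoter DHS shared by Xrcc4 and its neighbour Tmem167 (chr13:90088832-90089874) had a mean of 5.83 over all libraries, higher than 98.8% of DHS. That of Dclre1c reached 5.55 (96.9%), those at the Lig4 start shared with Abhd13 5.33 and 5.45 (94.7% and 95.9%), and that of Xrcc5 5.09 (91.1%). Lower were the Xrcc6 DHS, at an internal start, with 4.73 (83.3%), and a narrow Lig4 DHS with 4.42 (73.3%). The Xrcc6 DHS lay 40.12 kb from the start of the gene body, and no DHS covered that start or the RefSeq promoter of Xrcc6. The Rag1 promoter DHS, at 3.91, was above 47.3% of DHS. In all 7 contrasts between the lines, 0 of the 8 promoter DHS by the basic annotation passed, with adjusted p of at least 0.0701. Of all promoter DHS, 26.0% passed at 0 h and 10.6% in the change from 0 h to 24 h, but at most 0.835% at any of the other 5 times. Without Control 0 h replicate 4, the Xrcc4 promoter DHS passed at 0 h (0.59, adjusted p = 0.0246) and in the change (-0.74, adjusted p = 0.0494). At 24 h the median of the 8 differences was 0.02, against -0.05 for all 13657 promoter DHS.

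Among these promoters, that of Xrcc5, the larger Ku protein, had 5.25, 5.41 and 5.22 in control and 5.09, 4.66 and 4.63 in Ikaros cells at 24 h, a difference of -0.50 ± 0.18 (adjusted p = 0.176). The DHS at an internal start of Xrcc6 (chr15:82027664-82028245), which encodes the smaller Ku protein, ran the other way: 4.54, 4.41 and 4.39 against 5.43, 5.25 and 4.87, a difference of 0.74 ± 0.21 (1.67-fold, adjusted p = 0.0769). Neither passed the test, but the Xrcc6 difference passed with quantile normalization (0.84, adjusted p = 0.0247) and with a spread per group (adjusted p = 0.0116). Its change from 0 h to 24 h passed without Ikaros 0 h replicate 6 (1.09, adjusted p = 0.0328). A narrow Lig4 DHS of 85 bp, 2.23 kb from the start, differed by 1.77 ± 0.54 at 6 h and 1.47 ± 0.54 at 24 h (adjusted p = 0.123 and 0.168), with 6 h control values of 3.78, 1.80 and 3.82; with a spread per group both passed (adjusted p = 0.0423 and 0.0240). The promoter DHS of Dclre1c (-0.20 ± 0.18 at 24 h) and of Xrcc4 (-0.15 ± 0.16) differed by less than 2 SE.

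**Figure D5:**
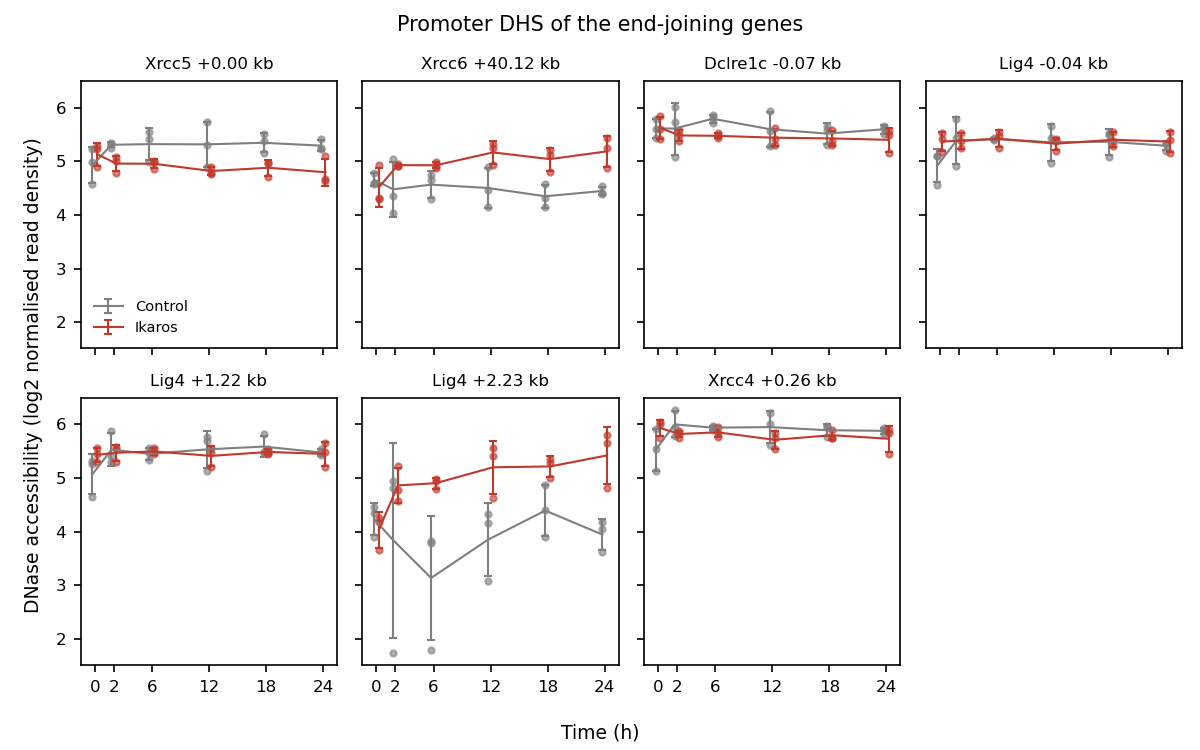
Accessibility (log2 normalised read density, y axis) against time in hours (x axis) at the 7 promoter DHS of Xrcc5, Xrcc6, Dclre1c, Lig4 and Xrcc4, with each library as a point and lines joining group means with SD bars (n = 3). All Ikaros values lie above all control values at the Xrcc6 DHS and the 85 bp Lig4 DHS at 6 h and every later time. At Xrcc5 they lie below the control values at 2, 18 and 24 h. The lines also stand apart at Dclre1c at 6 h (Ikaros lower) and at the Lig4 DHS 0.04 kb from the start at 0 h (Ikaros higher). Elsewhere the values of the lines overlap. The 85 bp Lig4 DHS at 2.23 kb has the widest spread.

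At the other DHS, the end-joining genes had 3 calls at 0 h, of which 1 covers the RefSeq promoter of Nhej1, and 1 call in the change from 0 h to 24 h. The only DHS of Prkdc, the kinase gene, lay in an intron 200.78 kb from the start (chr16:15838395-15838898) and was lower in Ikaros cells at 0 h, with 2.47, 3.27 and 3.05 against 4.26, 3.68 and 4.37. The difference was -1.17 ± 0.29 (0.444-fold, adjusted p = 0.00885), and at 24 h it was -0.10 ± 0.29. At 2, 6, 12 and 18 h it was -0.25, -0.40, 0.15 and -0.73, none past the threshold, with all Ikaros values below all control values at 18 h. Nhej1, the XLF gene, had 5.43, 5.44 and 5.52 in Ikaros cells against 5.03, 5.06 and 4.61 in control cells at 0 h at a DHS over the start of its gene body (chr1:75124407-75125493), classed as intron because no basic transcript of the annotation starts within it, a difference of 0.56 ± 0.15 (1.47-fold, adjusted p = 0.0173). The DHS 124.50 kb into Nhej1 (chr1:75000444-75000946) was lower in Ikaros cells at 0 h, at 3.25, 3.52 and 3.55 against 3.95, 3.79 and 4.47, a difference of -0.63 ± 0.20 (adjusted p = 0.0339).

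These 0 h calls each depended on single libraries. Without Control 0 h replicate 6 the values were -1.04 (adjusted p = 0.0614) at Prkdc, 0.42 (0.135) at the Nhej1 start and -0.43 (0.232) at 124.50 kb, and without it 0 of the 47 DHS passed at 0 h. Prkdc also lost its call without Ikaros 0 h replicate 4 (-0.94, adjusted p = 0.0576), and the DHS at 124.50 kb without Control 0 h replicate 4 (-0.69), Ikaros 0 h replicate 4 (-0.54) or replicate 5 (-0.67), with adjusted p between 0.0509 and 0.121. With trends removed, the Nhej1 start differed by only 0.07 (adjusted p = 0.725). The calls at Prkdc, the Nhej1 start and 124.50 kb were lost in 6, 7 and 11 of 15 alternatives.

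The DHS 310.18 kb into Xrcc4 (chr13:89779177-89779677) changed its line difference by 1.12 ± 0.35 from 0 h to 24 h (adjusted p = 0.0493). Its values were 4.05, 3.23 and 4.32 in control and 2.90, 3.58 and 3.36 in Ikaros cells at 0 h, and 3.86, 3.51 and 3.32 against 3.85, 4.49 and 3.98 at 24 h, so the groups overlapped at both times. With the replicate number as a block the value was the same and the adjusted p 0.0625, which ended the call. It was also lost without 10 of the 12 single libraries in turn, with values between 0.90 and 1.27 and adjusted p between 0.0561 and 0.149, and kept in 3 of 21 alternatives.

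DHS of at most 200 bp were measured less precisely: for the 13 such members the median SE of the 24 h difference was 0.485, against 0.215 for the 34 wider ones. The large differences at Lig4 and beyond the Rag1 start were both at such narrow DHS.

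Promoter DHS of other repair genes were read from 3 lists. In the list of further end-joining genes and RAG cofactors, 4 of 17 DHS passed at 0 h, all higher in Ikaros cells (median of the list 0.40), in the damage response list 5 of 21 (median 0.36) and in the alternative end-joining list 3 of 7 (median 0.46). Of all promoter DHS, 26.0% passed at 0 h, with a median of 0.34. Of the 45 DHS of the 3 lists, 12 thus passed, all higher, but with each library's trends removed 3 were higher and 3 lower, and the median of the 45 moved from 0.37 to -0.08. Examples are Cyren, an inhibitor of classical end joining (0.91 ± 0.16), Lig3, the ligase of alternative end joining (1.00 ± 0.17), Nbn, a member of the break-sensing MRN complex (0.60 ± 0.14), and Trp53, which encodes the tumour suppressor p53 (0.94 ± 0.23). At 6 h 1 of the damage response list and 1 of the alternative end-joining list passed, both higher. At 24 h 0 of the 45 passed, where 0.835% of all promoter DHS did. By the F-tests, 2 DHS of the damage response list changed over the time course of the Ikaros line, and 1 of the end-joining and cofactor list passed for the interaction. From 0 h to 24 h the line difference changed at 6, all downwards, against 10.6% of all promoter DHS, and at 0 with trends removed, while quantile normalization left 2 downwards and 1 upwards. The 6 include Trp53 (-1.29 ± 0.32) and Supt16 (-0.98 ± 0.28), a subunit of the FACT histone chaperone.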

How the data were processed

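DNase-seq was measured in 36 libraries of B3 cells. Per the study's methods, the authors aligned reads to mm10 with Bowtie2, called peaks with HOMER, merged them to consensus DHS, counted reads, filtered low DHS, scaled by RPKM and TMM and applied ARSyN noise correction. The deposited values are log2 values; base 2 gives 369487 to 432755 RPM over the DHS of a library. Read depth by library is not given in the sources used here, beyond a minimum in the study's methods. Whether a start counts from 0 or 1 is not stated.

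The values were fitted in R 4.3.3 with limma 3.58.1 (12 group means, all 36 libraries, eBayes with an intensity trend), two-sided, with Benjamini-Hochberg adjustment over all 52788 DHS and a threshold of 0.05. The fit was tested on simulated data with independent noise, equal spread in all groups and a log2 change of 2 at 200 DHS. It recovered 175 of the 200, with 9 false calls. Smaller changes and unequal spread were not simulated. A promoter DHS lay within 1000 bp of a start in GENCODE vM21 (basic). Named were every DHS of the Rag locus, the promoter DHS of the genes and every DHS past the threshold. DHS and lists were chosen with earlier results of these data known. Of the B-lineage markers, 1 is not reported here. The study's methods call the 3 libraries of a group biological replicates.

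Per the labels, replicate numbers 4, 5 and 6 mark batches 11, 12 and 13 and so pair the samples by label. By the study's methods cells at 0 h came from a separate collection, so whether a number pairs them with later samples is not known. The median correlation of residuals was -0.0103 between libraries of the same number and 0.00789 otherwise, and 9 of 36 libraries correlated best with their own number. Alternatives were quantile normalization, leaving out the lowest 25% of DHS, a replicate block, removal of trends, a spread per group, only the groups compared, and leaving out replicates.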

Additional observations from a re-analysis of the deposited data

Results flagged for a closer look

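The line difference of 2 DHS changed between times beyond the test's threshold. Since cells at 0 h were a separate collection without drug, such a change cannot be told apart from a difference between collections. At the DHS 8.63 kb upstream of Rag2 the line difference changed by 1.31 from 0 h to 24 h, and at the DHS 310.18 kb into Xrcc4 by 1.12. The latter call ended with the replicate number, which marks the batch, as a block (adjusted p = 0.0625) and was lost in 18 of 21 alternatives, over which adjusted p ran from 0.00943 to 0.592. At the Rag2 DHS, all Ikaros values lay below all control values at 0 h and above them at 2, 6, 12 and 18 h as well, with changes from 0 h of 0.80, 0.71, 1.34 and 1.05; these 4 changes were not tested.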

How the results depend on the processing

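Counts of the 47 DHS past the threshold were small and moved with the processing. At 0 h 5 passed, against 2 with quantile normalization, 1 with trends removed, 1 with a spread per group and 0 in a fit of only the groups compared. At 6 h a spread per group gave 1 in place of 0. At 12 h 2 passed, against 0 with trends removed, 0 with only the groups compared and 3 with a spread per group; quantile normalization also gave 2, with Xrcc6 at 40.12 kb (0.84, adjusted p = 0.0411) in place of the Rag DHS 25.74 kb upstream. At 18 h 1 passed, against 0 with quantile normalization, 5 with a spread per group and 0 with only the groups compared. At 24 h 2 passed, against 0 with trends removed, 6 with a spread per group, 3 with quantile normalization, which added Xrcc6 at 40.12 kb, and 3 with only the groups compared, where the DHS 25.74 kb upstream was lost and the DHS at 26.31 kb (adjusted p = 0.0485) and the narrow Lig4 DHS (0.0395) passed. The change from 0 h to 24 h was called for 2, against 1 with the replicate block, 0 with trends removed, 1 with a spread per group and 0 with only the groups compared. Change over time in Ikaros cells had 0 calls, against 4 with only the groups compared. The replicate block ended the call at Xrcc4 and changed no other call.

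Leaving out replicates or single libraries gave 0 to 7 calls at 0 h, 0 to 1 at 2 h, 0 to 2 at 12 h, 0 to 2 at 18 h, 0 to 2 at 24 h, 0 to 3 for the change from 0 h to 24 h, 0 to 2 for the interaction and 0 to 1 for change over time in control cells. No called difference changed sign under any alternative run, but most of the alternative values, 103, no longer passed. Each call at a single time had 15 alternatives, and each call in the change from 0 h to 24 h had 21. Quantile normalization moved the median of all DHS in the change from 0 h to 24 h from 0.12 to -0.04. The scaling of the lists of other repair genes and of the sign count at the Rag locus was chosen after seeing the data. The causes of these shifts were not tested. The depth of each library was not used here, and 3 libraries per group limit the precision.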
